A study of Loxodonta africana with 12 samples.

Results

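Untreated African elephant (Loxodonta africana) blood cells were compared between 24 h and 5 h. The comparison uses the 6 libraries labelled untreated of the 12 in the study, 3 at each time, and every gene with enough counts in them. The other 6 libraries come from cells irradiated at the dose given below and taken at the same times, and they enter only where stated. The study set out to find genes that differ between irradiated and untreated cells, so the untreated libraries at both times are its controls, and their difference is the change over time without irradiation.

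The 5 h group and the 24 h group carry the same labels apart from time: source blood, agent untreated, total RNA, and a stranded library kit that removes ribosomal RNA. No genotype, sex, age or culture condition is given for either group, and the isolation and culture of the blood cells are not described in the labels. The labels number the replicates 1 to 3 without saying whether they came from separate elephants, blood draws or cultures. The p-values therefore speak only of how much these libraries varied, part or all of which could be technical variation. Time in culture and any batch that goes with the time of collection cannot be told apart.

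Blood leukocytes are a mixture of lymphocytes, monocytes, dendritic cells and granulocytes. Handling, contact with plastic and adhesion are known to activate monocytes, which then release cytokines and chemokines through the transcription factor NF-kB. Monocytes kept in culture differentiate into macrophages or dendritic cells, which build up lysosomes, lipid-handling proteins and antigen-presenting molecules. Neutrophils are short-lived outside the body. In bulk RNA, fewer cells of a type and less RNA per cell cannot be told apart.

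Library totals were 31059389, 35964159 and 35753341 counts at 5 h and 22924260, 30807368 and 37356501 counts at 24 h. The first principal component held 79.2% of the variance and separated the times. The 100 genes with most counts took 18.69% to 18.99% of each 5 h library and 14.91% to 15.8% of each 24 h library. The TMM scaling factors, which adjust for such differences in composition, were 0.8627 to 0.8678 at 5 h and 1.105 to 1.201 at 24 h. The median log2 fold change of all genes was 0.108 after this scaling and 0.525 when libraries were scaled by their totals alone. "Higher" and "lower" below are relative to the TMM scaling, and levels are in CPM, counts relative to library size, on that scale, given as mean ± SD of 3 libraries. Log2 fold changes carry ± SE.

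One untreated library stood apart. Untreated 24 h replicate 1, the shallowest of the 6, held at least 10 counts in 15521 genes, against 13645 and 13722 in the other 24 h libraries and 12673 to 13044 at 5 h. The 2886 protein-coding genes with fewer than 10 counts in every untreated 5 h library took 0.217% of its counts, against 0.0845% and 0.0645% in 24 h replicates 2 and 3. In the untreated 5 h libraries, where they were chosen to be low, they took 0.0157% to 0.0288%. For 14 genes typical of other tissues, such as albumin (ALB), thyroglobulin (TG) and the keratin KRT5, chosen after the data were seen, the median level was 1.33 CPM of the library total in replicate 1, 0.325 and 0.147 CPM in replicates 2 and 3, and 0.0973 to 0.196 CPM at 5 h. All irradiated libraries carry a dose label of 2 Gy. The irradiated libraries also had raised values at 24 h, with 0.164%, 0.182% and 0.123% of their counts in the 2886 genes against 0.0274% to 0.0342% at 5 h. Their medians for the 14 genes were 0.903, 1.19 and 0.638 CPM against 0.134 to 0.21 CPM. Because the 2886 genes were chosen for low counts at 5 h, any gene that rises by 24 h adds to their share. Whether the signal in the irradiated libraries is that of replicate 1 was not tested. The part of this low-level signal in rises of genes near 1 CPM was not tested. Without this library 7506 genes were called, and with a filter of at least 5 CPM in 3 libraries, added after the data were seen, 7053 of 9831 genes were called.

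**Figure D1:**
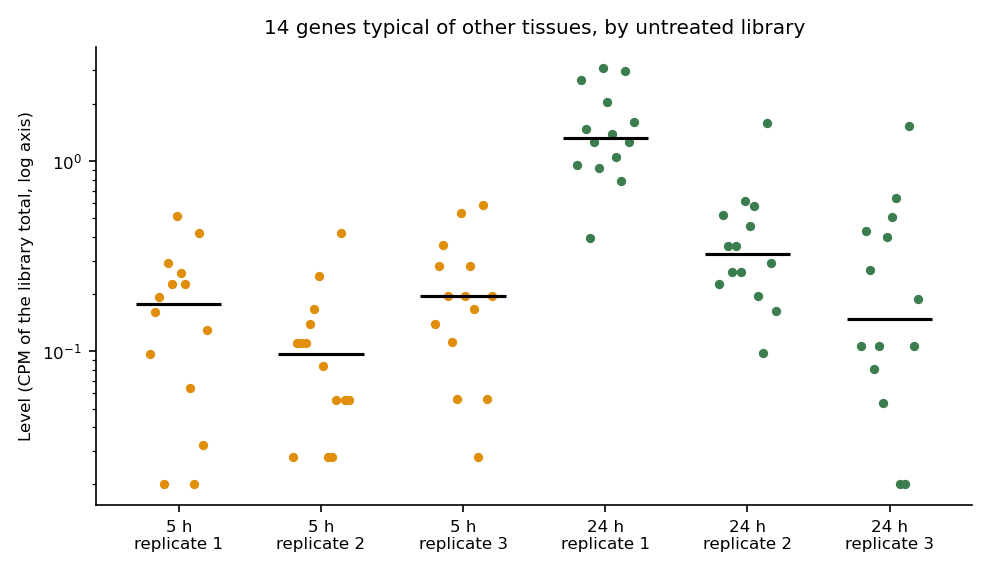
Levels of 14 genes typical of other tissues in each untreated library, in CPM of the library total on a log axis. Each point is 1 gene, bars are medians, and genes without a count are drawn at the lower edge. The median of 24 h replicate 1 (1.33 CPM) lies above those of the other 5 libraries (0.0973 to 0.325 CPM).

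Between 5 h and 24 h, 8490 of 13445 genes tested (63.1%) passed edgeR's quasi-likelihood test at a Benjamini-Hochberg adjusted p below 0.05. Of all genes tested, 4383 (32.6%) were higher and 4107 (30.5%) were lower at 24 h. The 24 h and 5 h libraries did not overlap in 9270 genes (68.9%). No overlap is also a condition for naming genes below, except for those always named. A stricter test, of changes above 2-fold, called 767 genes higher (5.7%) and 736 lower (5.47%). With library totals as the only scaling the split was 7063 higher and 2234 lower, so 76.0% of calls were rises in place of 51.6%. Upper quartile scaling gave 66.4%.

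The change differed with the level of a gene, with limits from how genes enter. Choosing genes by their 5 h level favours falls, and choosing by the 24 h level favours rises. Genes near 0 at 5 h can pass the filter through the 24 h libraries alone. The part of the low-level signal at 24 h in the lowest quartile was not tested. Of the 100 genes with most counts at 5 h, 86 were lower at 24 h and 1 was higher. Of the 100 genes with most counts at 24 h, 43 were lower and 24 were higher. Over quartiles of mean level the median log2 fold change went from 0.721 in the lowest through 0.367 and -0.0746 to -0.427 in the highest. Over quartiles of exon length it stayed between 0.0744 and 0.154.

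**Figure D2:**
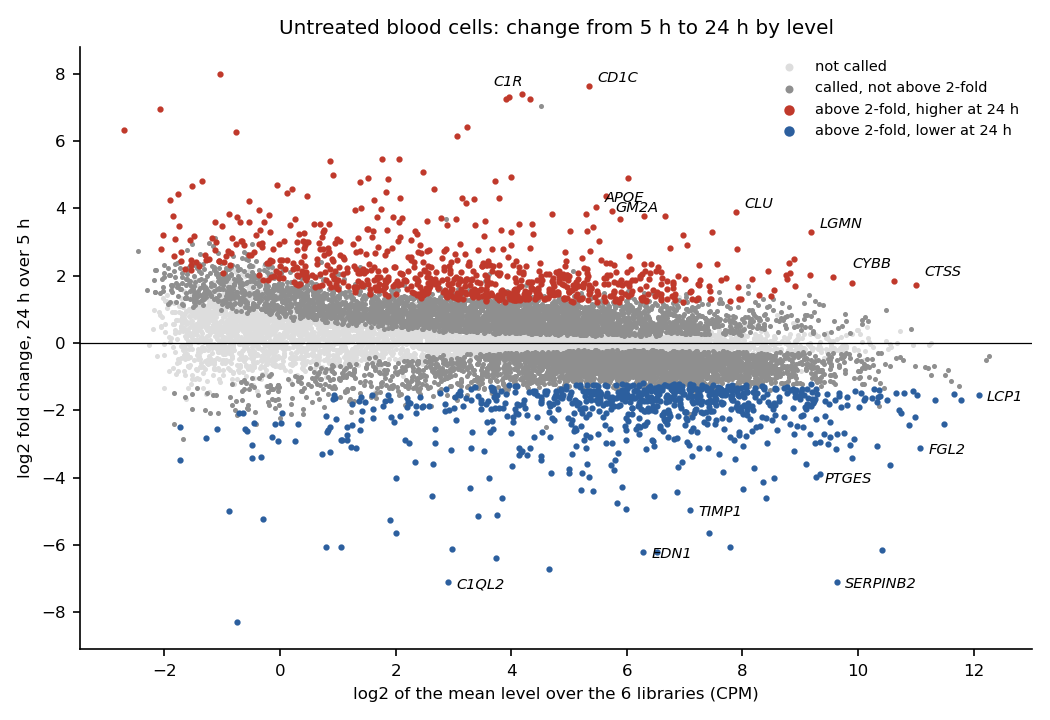
Log2 fold change from 5 h to 24 h against log2 of the mean level over the 6 untreated libraries (CPM), 1 point per gene. Red and blue points are the 767 higher and 736 lower genes that passed the test for changes above 2-fold. SERPINB2 (-7.10) and CD1C (7.63) lie at the extremes among well-expressed genes.

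The largest rises were in genes that stood at about 1 CPM or less at 5 h. CD1C (ENSLAFG00000001869, scaffold 33, 6823490 to 6922095, plus strand), a lipid-presenting molecule of dendritic cells and B cells, was at 0.595, 0.224 and 0.422 CPM at 5 h and at 77.1, 110.6 and 55.5 CPM at 24 h (log2 fold change 7.63 ± 0.37 SE, edgeR adjusted p = 2.2e-06). Its neighbour CD1E (scaffold 33, 6940973 to 6943953, plus strand) went from 0.26, 0.224 and 0.292 CPM to 37.7, 47.8 and 33.9 CPM (7.24 ± 0.22). The groups are far apart in both genes. CD1 genes form a family of similar copies, and the labels and headers do not say how reads were shared among them, so the values of each copy are uncertain.

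C1R, the protease that starts the classical complement cascade, rose from 0.211 ± 0.0982 to 36.3 ± 13.6 CPM (log2 fold change 7.38 ± 0.42). PLA2G2D, a secreted phospholipase of dendritic cells, rose from 0.214 ± 0.0168 to 18.5 ± 7.29 CPM (6.41 ± 0.38). Chromogranin B (CHGB), a protein of secretory granules, rose by 7.25 ± 0.31 on the log2 scale, and the oxidase ENOX1 by 7.31 ± 0.31. The other genes among the 12 largest rises were the RNA-binding protein CPEB1 (6.15), the membrane-bound metalloprotease MMP16 (5.46), VASH2 (5.46), TMEM150C (5.41), CYP24A1 (5.08) and CEACAM16 (4.94). TMEM150C had only 7 counts over the 3 libraries at 5 h, so its fold change rests on few counts.

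In some rises 1 library carried much of the level. CYP24A1, the enzyme that breaks down active vitamin D, was at 3.31 and 1.54 CPM in 24 h replicates 1 and 3 and at 27.4 CPM in replicate 2 (adjusted p = 0.0071). The chemokine CCL17, outside the naming rule and chosen after its values were seen, was at 3.86, 131.1 and 0.645 CPM at 24 h and at 0.186, 0.16 and 0.649 CPM at 5 h. Its groups overlap, although edgeR gave an adjusted p of 0.015. Its neighbour CCL22, chosen in the same way, was also highest in 24 h replicate 2, at 10.4 CPM against 3.24 and 1.47 CPM. Replicate 2 is not the library with the broad low-level signal.

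The largest falls included secreted and matrix proteins. SERPINB2 (scaffold 4, 36031231 to 36041297, minus strand), the plasminogen activator inhibitor of stimulated monocytes, was at 1505.8, 938.8 and 2277.1 CPM at 5 h and at 11.4, 14.5 and 8.62 CPM at 24 h (log2 fold change -7.10 ± 0.40, edgeR adjusted p = 3.5e-06). TIMP1, an inhibitor of matrix metalloproteases, fell from 264.6 ± 42.4 to 8.55 ± 1.34 CPM (-4.95 ± 0.17). Endothelin 1 (EDN1), a vasoconstrictor peptide that macrophages also make, was at 108.4, 86.6 and 266.9 CPM at 5 h and at 1.42, 3.14 and 1.66 CPM at 24 h. In each of these the lowest 5 h library lies many times above the highest 24 h library.

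The calcitonin genes CALCA and CALCB, whose products include calcitonin and calcitonin gene-related peptides, fell by 6.39 ± 0.36 and 6.06 ± 0.31 on the log2 scale. They are similar in sequence, and CALCB kept only 6 counts over the 3 libraries at 24 h. C1QL2 went from 14.8 ± 1.53 CPM to 11 counts over the 24 h libraries, and the monocyte chemoattractant CCL8 from 3.43 ± 3.34 CPM to 5 counts. The membrane protein EMP1 fell from 334.8 ± 57.2 to 6.70 ± 1.31 CPM (-5.65 ± 0.20), and IQSEC3 from 122.4 ± 15.6 to 4.00 ± 1.03 CPM. The other genes among the 12 largest falls were COL15A1 (-6.12), the receptor NOTCH3 (-5.15) and PHOSPHO1 (-5.11).

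Ranked by absolute change per exon length (RPKM, CPM per kilobase of exon), the rises included lysosomal and antigen-presenting genes. CTSS (scaffold 11, 41625535 to 41646427, plus strand), the cathepsin that trims the invariant chain of MHC class II, was at 990.5, 935.4 and 935.7 CPM at 5 h and at 3000.3, 3629.4 and 2868.4 CPM at 24 h (log2 fold change 1.73 ± 0.12, edgeR adjusted p = 1.1e-05). CYBB, the catalytic subunit of the phagocyte NADPH oxidase, rose from 687.5 ± 135 to 2483 ± 378 CPM, and CXCR4, the receptor for CXCL12, from 433.8 ± 93.1 to 1480 ± 191 CPM. Both have separate groups, as the naming rule requires.

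LGMN (scaffold 9, 69544048 to 69575515, minus strand), an asparagine-specific protease of lysosomes, rose from 107.9 ± 8.52 to 1054 ± 306 CPM (3.29 ± 0.21). The cathepsin inhibitor CSTB (0.88 ± 0.13), the transcriptional inhibitor ID2 (1.15 ± 0.20) and HLA-DPB1 (1.13 ± 0.15), a class II MHC chain whose similar copies make its value uncertain, rose less in proportion. SNORD74, a small nucleolar RNA, rose by 1.27 ± 0.28, and its counts may include the transcript that hosts it.

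C15orf48, a small mitochondrial protein known to be induced by NF-kB, had the largest fall in RPKM, from 6039 ± 710 to 944 ± 206. FGL2 (scaffold 5, 72628740 to 72632516, plus strand), a fibrinogen-like protein of macrophages, was at 3414.9, 4403.8 and 3807.6 CPM at 5 h and at 417.8, 527.9 and 396.8 CPM at 24 h (log2 fold change -3.11 ± 0.16). PTGES, the inducible prostaglandin E synthase, fell from 1167 ± 214 to 74.7 ± 21.8 CPM (-3.96 ± 0.24). The groups do not overlap in any of these 3 genes, as the naming rule requires.

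The actin regulators LCP1 (-1.54 ± 0.16) and CFL1 (-1.64 ± 0.12), the glycolytic enzyme ENO1 (-1.70 ± 0.15), annexin A1 (ANXA1, -1.54 ± 0.19) and the membrane protein EMP3 (-3.60 ± 0.12) complete the 8 largest falls in RPKM. LCP1, which bundles actin in leukocytes, still stood at 2223 ± 478 CPM at 24 h, down from 6480 ± 249 CPM.

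**Figure D3:**
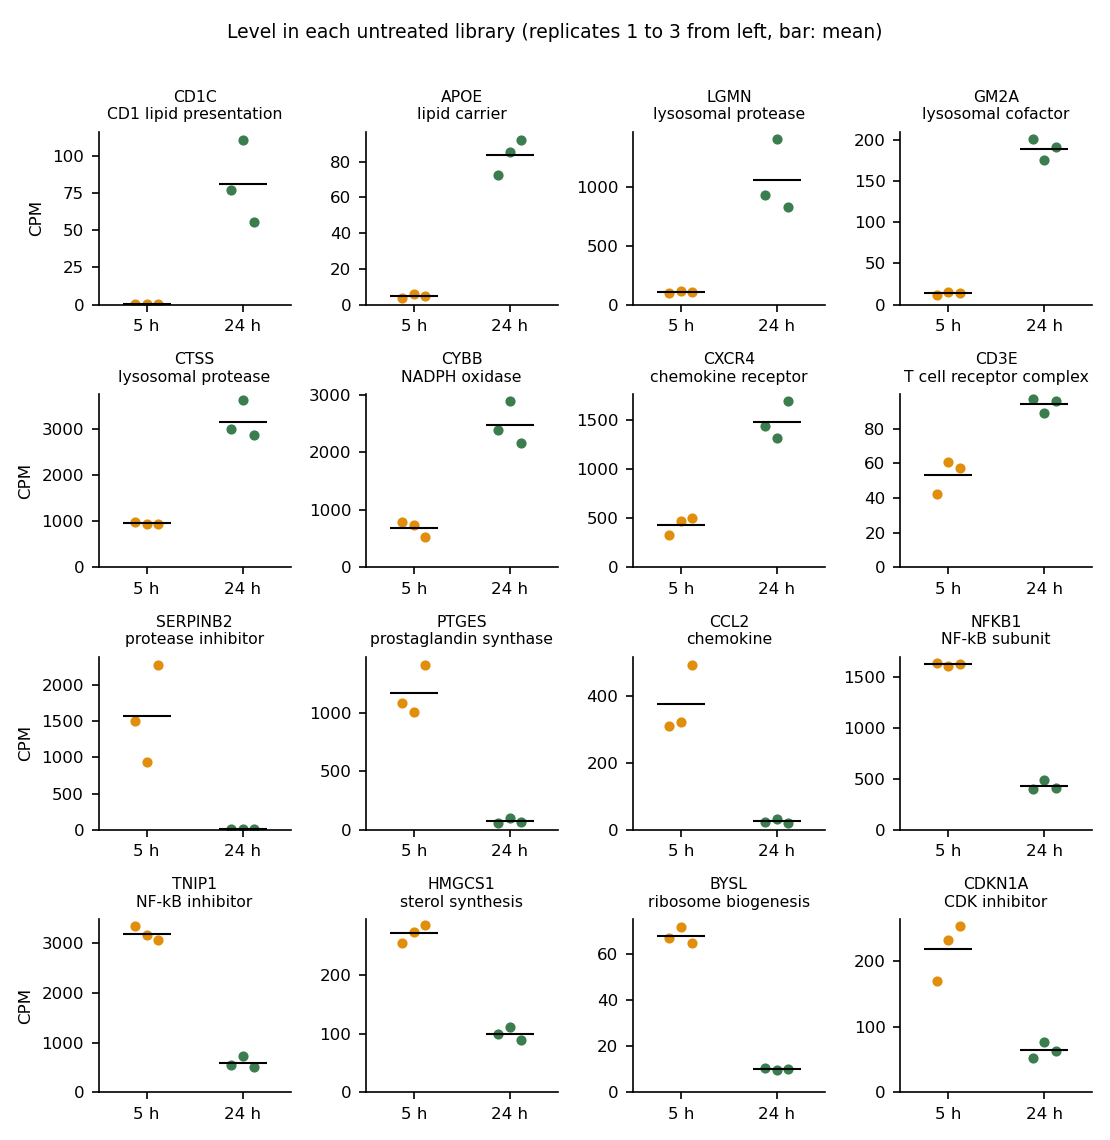
Level (CPM, axes from 0) of 16 genes in each untreated library, replicates 1 to 3 from left to right, with the mean as a bar. The upper 8 genes rose and the lower 8 fell, and in each the 5 h (orange) and 24 h (green) libraries do not overlap. No overlap was a condition for naming genes, except for those always named, and held in 68.9% of all genes tested.

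Genes were then read by list. Counts of members called higher or lower are to be set against 32.6% and 30.5% of all genes, and medians against 0.108. Counts by the test above 2-fold are to be set against 5.7% higher and 5.47% lower of all genes. Lymphocyte markers were mostly higher or not called. Of 30 T cell markers 16 were higher and 2 lower (median log2 fold change 0.40). CD3E, a chain of the T cell receptor complex, was at 42, 60.8 and 57.2 CPM at 5 h and at 97.2, 89.3 and 96.2 CPM at 24 h (0.82 ± 0.14, edgeR adjusted p = 0.0009). The adhesion receptor CD2 (0.99 ± 0.15) and the costimulatory receptor CD28 (1.08 ± 0.18) rose, while the adaptor FYB, which myeloid cells also use, fell by 0.67 ± 0.09. Without untreated 5 h replicate 1, 10 T cell markers were called higher (median 0.26).

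Of 20 B cell markers 8 were higher and 2 lower (median 0.37). MS4A1, which encodes CD20, was at 39.8, 54.4 and 59.7 CPM at 5 h and at 92.1, 74.6 and 89.1 CPM at 24 h (0.73 ± 0.15, adjusted p = 0.0033). BLNK, an adaptor of B cell receptor signalling that myeloid cells also express, rose from 8.17 ± 0.346 to 36.2 ± 0.274 CPM (2.15 ± 0.09), and the inhibitory receptor CD72 rose by 1.82 ± 0.14. CD22 rose by 0.68 ± 0.09 and RALGPS2 fell by 0.63 ± 0.09. The RALGPS2 call was lost with library totals as the scaling (adjusted p = 0.053). Without 5 h replicate 1 the median of the B cell list was 0.22.

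Of 16 NK and cytotoxic cell genes 8 were higher and 1 lower (median 0.51). The cytotoxic granule gene NKG7 (0.70 ± 0.12), the inhibitor CST7 (0.75 ± 0.14) and the activating receptor NCR1 (1.21 ± 0.16) rose. The gene that fell was TYROBP, an adaptor shared with monocytes, from 576.5 ± 48.3 to 167.8 ± 5.16 CPM (-1.78 ± 0.10). Because of it the summed level of the list was 899.4 to 996.4 CPM at 5 h and 673.5 to 724.7 CPM at 24 h. The number called higher was 4 without 5 h replicate 1 and 5 without 24 h replicate 1.

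Lymphocyte activation genes gave 5 higher and 4 lower of 28, and their summed level was 3411 to 3906 CPM at 5 h and 1975 to 2646 CPM at 24 h. The immune checkpoint receptors TIGIT (1.05 ± 0.11) and BTLA (0.80 ± 0.14) rose. IL2RA, the high-affinity interleukin 2 receptor chain, fell from 13.7 ± 6.40 to 2.80 ± 0.417 CPM (-2.30 ± 0.32), and the transcription factor PRDM1 fell by 0.97 ± 0.14. Without 24 h replicate 1 there were 3 called higher, and without 24 h replicate 3 there were 7 called lower.

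Monocyte identity genes were split. Of 24, 5 were higher and 11 lower (median -0.18, or 0.24 with library totals). CD14, the defining gene of the list, was not analysed here. CSF1R, the receptor for macrophage colony-stimulating factor, was at 1550.7, 1730.1 and 897.3 CPM at 5 h and at 1426.3, 1423.8 and 1519.5 CPM at 24 h. Its groups overlap and it was not called (0.06 ± 0.22, edgeR adjusted p = 0.81). The kinase FGR fell from 492.3 ± 55.0 to 81.3 ± 3.53 CPM (-2.60 ± 0.11). The complement factor properdin (CFP, -2.21 ± 0.13), the calcium-binding S100A9 (-2.51 ± 0.16) and SPI1 (-1.68 ± 0.13), the myeloid transcription factor PU.1, fell as well. The summed level of the list was 7146 to 8613 CPM at 5 h and 8170 to 9192 CPM at 24 h, as CYBB rose. The median was -0.76 without 24 h replicate 3, with 13 called lower, -0.28 without 5 h replicate 2, and -0.11 and -0.02 without 24 h replicates 2 and 1.

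Of 16 neutrophil genes tested 8 were lower, 2 higher and 6 not called (median -0.85), and their summed level was 2815 to 4782 CPM at 5 h and 768.9 to 1385 CPM at 24 h. CXCR2, the interleukin 8 receptor of neutrophils, was at 7.81, 9.13 and 7.91 CPM at 5 h and at 0.946, 1.23 and 0.968 CPM at 24 h (-2.98 ± 0.18). FPR1, the formyl peptide receptor, which monocytes share, fell from 1124 ± 116 to 249.9 ± 55.5 CPM (-2.17 ± 0.17). The water channel AQP9 (-3.20 ± 0.21) and the histone-modifying PADI4 (-1.74 ± 0.17) fell. The median was -0.47 without 5 h replicate 3, -0.50 without 24 h replicate 1 and -1.62 with the 5 CPM filter.

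Platelet genes gave 4 lower and 1 higher of 15 (median -0.37, or 0.06 with library totals). ITGA2B, the platelet integrin chain, was at 20.8, 14.5 and 30.5 CPM at 5 h and at 9.10, 10.9 and 11.2 CPM at 24 h (-1.07 ± 0.24). F13A1, the coagulation factor XIII chain that monocytes also make, fell by 3.06 ± 0.13. VWF fell by 1.02 ± 0.25, a call lost with library totals (adjusted p = 0.0541). The gene that rose was clusterin (CLU, scaffold 22, 7452710 to 7463952, plus strand), a secreted chaperone made by many cells, from 30.2 ± 3.67 to 444.4 ± 61.8 CPM (3.88 ± 0.15). With CLU in it, the summed level of the list was 200.1 to 282.5 CPM at 5 h and 509.8 to 607.4 CPM at 24 h. Called higher were 2 without 5 h replicate 3 and 4 without 24 h replicate 3, and called lower were 6 without 5 h replicate 2. The median was -0.61 without 5 h replicate 2 and -0.11 without 5 h replicate 3.

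Erythroid genes gave 3 lower and 2 higher of 17 (median -0.15, or 0.26 with library totals). The larger falls were of carbonic anhydrase CA2 (-2.77 ± 0.41) and the transferrin receptor TFRC (-1.19 ± 0.22), both made outside the red cell lineage too. BPGM (0.60 ± 0.16) lost its call without 5 h replicate 1 or 24 h replicate 2 (adjusted p = 0.0595 and 0.0531). SELENBP1 (0.38 ± 0.12) lost its call in every repeat that left out a library except the one without 24 h replicate 2. Of the erythroid genes 0 to 1 were called higher in the repeats that left out 5 h replicate 1 or 3 or any 24 h replicate. Their median was -0.53, 0.0015 and -0.09 without 5 h replicates 1, 2 and 3, and -0.42 without 24 h replicate 3.

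Stromal and endothelial genes gave 5 lower and 3 higher of 20. COL1A1, the defining gene of fibroblasts, was near 0 at both times, at 0.794 ± 0.959 and 0.806 ± 0.427 CPM. Fibronectin (FN1), which monocytes make too, fell from 204.7 ± 23.6 to 29.2 ± 2.71 CPM (-2.81 ± 0.12), the VEGF receptor FLT1 fell by 3.32 ± 0.43 and endoglin (ENG) by 1.05 ± 0.17. PECAM1, an adhesion molecule of leukocytes and endothelium, rose by 1.26 ± 0.12. The median of the list was 0.18, but -0.03 without 24 h replicate 1, 0.39 without 5 h replicate 1 and 0.43 without 24 h replicate 3.

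Dendritic cell genes moved in both directions, 6 higher and 8 lower of 17 (median -0.16, or 0.28 with library totals). CD1C is counted in the macrophage differentiation list, not in this list. CLEC9A, which defines cross-presenting dendritic cells, was at 4.33 ± 1.04 and 4.47 ± 1.38 CPM and was not called. The growth factor receptor FLT3 (1.25 ± 0.12) and the transcription factor TCF4 (1.09 ± 0.09) rose. CD86, a ligand that costimulates T cells, was at 185.3, 156.4 and 250.7 CPM at 5 h and at 26.4, 37.4 and 18.4 CPM at 24 h (-2.85 ± 0.27), and the interleukin 3 receptor IL3RA fell by 1.58 ± 0.14. The list's median was -0.27 without 5 h replicate 2, and -0.35, -0.25 and -0.09 without 24 h replicates 1, 2 and 3.

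Macrophage differentiation genes also divided, with 12 higher and 10 lower of 33 and a median of 0.01, which is -0.04 with DESeq2 size factors. Of these, 7 were higher and 6 lower by the test above 2-fold, which called 5.7% higher and 5.47% lower of all genes. By the main test 66.7% of the list was called, against 63.1% of all genes. The members include CD1C, described above, which dendritic cells and B cells carry. Apolipoprotein E (APOE), the lipid carrier of macrophages, was at 3.72, 6.22 and 5.09 CPM at 5 h and at 72.6, 85.3 and 92.3 CPM at 24 h (4.05 ± 0.19, edgeR adjusted p = 1.7e-06). The collagen-degrading cathepsin CTSK rose from 6.03 ± 0.345 to 28.9 ± 1.47 CPM (2.26 ± 0.10). The tetraspanin CD9 fell by 1.82 ± 0.11. With 1 library left out the median of the list reached 0.17, 0.20 and 0.18 (5 h replicates 1 to 3) and 0.07 and 0.12 (24 h replicates 1 and 3).

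Members outside the naming rule, chosen after their values were seen, show both sides. The lipid-sensing receptor TREM2 rose from 10.4 ± 1.66 to 46.3 ± 3.82 CPM, the complement chain C1QA from 16.5 ± 3.59 to 47.2 ± 1.85 CPM, and MERTK, a receptor for dying cells, from 2.87 ± 0.857 to 9.01 ± 1.83 CPM. The matrix metalloproteases MMP9 and MMP12 fell from 1278 ± 274 to 158.5 ± 101 CPM and from 29.8 ± 5.46 to 2.38 ± 1.59 CPM.

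Of 28 inflammatory cytokine genes 14 were lower, 4 higher and 10 not called (median -1.11), and their summed level was 2877 to 3966 CPM at 5 h and 1117 to 1471 CPM at 24 h. The list and its sum include the prostaglandin E synthase PTGES, an enzyme, at 1167 ± 214 CPM at 5 h and 74.7 ± 21.8 CPM at 24 h. EREG, an EGF-type growth factor, was at 65.7, 63.9 and 81.1 CPM at 5 h and at 3.13, 5.29 and 1.96 CPM at 24 h (-4.36 ± 0.31). CSF1, the macrophage growth factor, fell by 1.87 ± 0.09, and IL23A, a subunit of interleukin 23, by 1.20 ± 0.09. The number called higher was 2 in the repeats without 5 h replicate 1 or 2 or without 24 h replicate 1 or 2.

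TNF, the macrophage cytokine, was not called. It was at 750.4, 715.2 and 890.1 CPM at 5 h and at 587.9, 377.6 and 753.7 CPM at 24 h, so the groups overlap (-0.45 ± 0.23, edgeR adjusted p = 0.11). It was called without 24 h replicate 3 (adjusted p = 0.00948). CD14, IL1B, LYZ and HBB were not analysed here.

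Of 9 chemokine genes tested 6 were lower and 2 higher (median -1.57). CCL2, which attracts monocytes, was at 310.7, 324.0 and 495.4 CPM at 5 h and at 24, 33.6 and 21.7 CPM at 24 h (-3.83 ± 0.24). CXCL16 fell from 742.7 ± 82.6 to 249.4 ± 41.6 CPM, and the interferon-induced CXCL11 from 23.0 ± 2.94 to 6.68 ± 0.489 CPM. With the filter at 5 CPM 4 chemokine genes remained in the test, and all 4 were lower.

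Receptors for chemokines went the other way, with 6 of 10 higher and 0 lower (median 0.73). Fits of the other scalings, DESeq2 and each left-out library also called 0 lower, and 5 to 9 were higher. CCRL2, a receptor that binds chemokines without signalling, was at 317.3, 202.0 and 235.5 CPM at 5 h and at 503.3, 721.2 and 498.8 CPM at 24 h. CXCR4 is described above, CCRL2 rose by 1.19 ± 0.20 and CCR1 by 0.80 ± 0.21. CCR1 and CCRL2 are related genes. Without 5 h replicate 1 the median was 0.47.

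Among NF-kB regulators 23 of 31 were lower and 1 was higher, and 10 were lower by the test above 2-fold (median -0.82, or -0.40 with library totals). NFKB1 (scaffold 14, 9536412 to 9642066, plus strand), the p50 subunit, was at 1639.8, 1612.7 and 1633.3 CPM at 5 h and at 401.8, 490.5 and 412.8 CPM at 24 h (-1.90 ± 0.11, edgeR adjusted p = 4.6e-06). TNIP1, an inhibitor of the pathway, fell from 3192 ± 138 to 593.1 ± 121 CPM (-2.43 ± 0.16). IRAK3, which blocks signalling from Toll-like receptors (-1.72 ± 0.10), and the kinase RIPK2 (-1.34 ± 0.10) fell. The list thus includes activators and inhibitors among its falls. Its summed level was 18050 to 18750 CPM at 5 h and 7127 to 8556 CPM at 24 h.

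Toll-like receptor genes gave 9 lower and 4 higher of 17 (median -0.52). The adaptors TICAM1 (-2.79 ± 0.16) and TIRAP (from 12.1 ± 1.63 to 3.02 ± 0.504 CPM) fell. TLR8, a sensor of single-stranded RNA in endosomes, rose from 185.2 ± 32.6 to 691.7 ± 68.8 CPM (1.90 ± 0.15), and CD180, a homologue on B cells and myeloid cells, from 28.3 ± 0.870 to 97.8 ± 8.85 CPM. TLR2, a sensor of bacterial lipoproteins chosen after its values were seen, fell from 312.0 ± 48.5 to 91.5 ± 20.6 CPM.

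Immediate early genes, which respond within minutes to growth and stress signals, gave 11 lower and 7 higher of 29 (median -0.28, or 0.15 with library totals). The ERK phosphatase DUSP6 was at 1318.3, 1241.5 and 1276.3 CPM at 5 h and at 174.5, 173.8 and 211.4 CPM at 24 h (-2.78 ± 0.12). FOSL1 (-2.59 ± 0.27), KLF10 (-2.08 ± 0.16) and the kinase SGK1 (-1.44 ± 0.13) fell. FOS was at 538.0, 208.8 and 406.1 CPM at 5 h and at 652.9, 502.8 and 658.2 CPM at 24 h, with overlap (0.65 ± 0.30, edgeR adjusted p = 0.082). It was called without 5 h replicate 1 (adjusted p = 0.0263). EGR1 fell by 0.84 ± 0.26 (adjusted p = 0.022), a call lost with upper quartile scaling or library totals and without 5 h replicate 1 or 3 or 24 h replicate 1 (adjusted p 0.0534 to 0.202). MYC was at 107.9 ± 9.84 and 72.5 ± 26.2 CPM and was not called (adjusted p = 0.058), but was called without 24 h replicate 3 (0.00186). That library also moved the list, to 16 lower and a median of -0.73, while the median was -0.42 without 5 h replicate 1 and -0.16 without 24 h replicate 2. With the replicate block 12 of the list were called higher and 14 lower.

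Interferon-stimulated genes mostly did not pass: 24 of 38 were not called, 9 were lower and 5 higher (median -0.13, or 0.28 with library totals). IDO1, the tryptophan-degrading enzyme, was at 8.29, 6.06 and 7.20 CPM at 5 h and at 67.7, 121.8 and 43.9 CPM at 24 h (3.44 ± 0.36). The tetherin gene BST2 rose by 1.86 ± 0.21 and LGALS3BP by 1.33 ± 0.13, while the GTPase GBP2 fell by 1.48 ± 0.16. Called lower were 17 without 24 h replicate 2, and 3 were called higher without 5 h replicate 2 or 24 h replicate 3. The median was -0.33 and 0.0058 without 5 h replicates 2 and 3, and -0.08 and -0.42 without 24 h replicates 1 and 2.

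**Figure D4:**
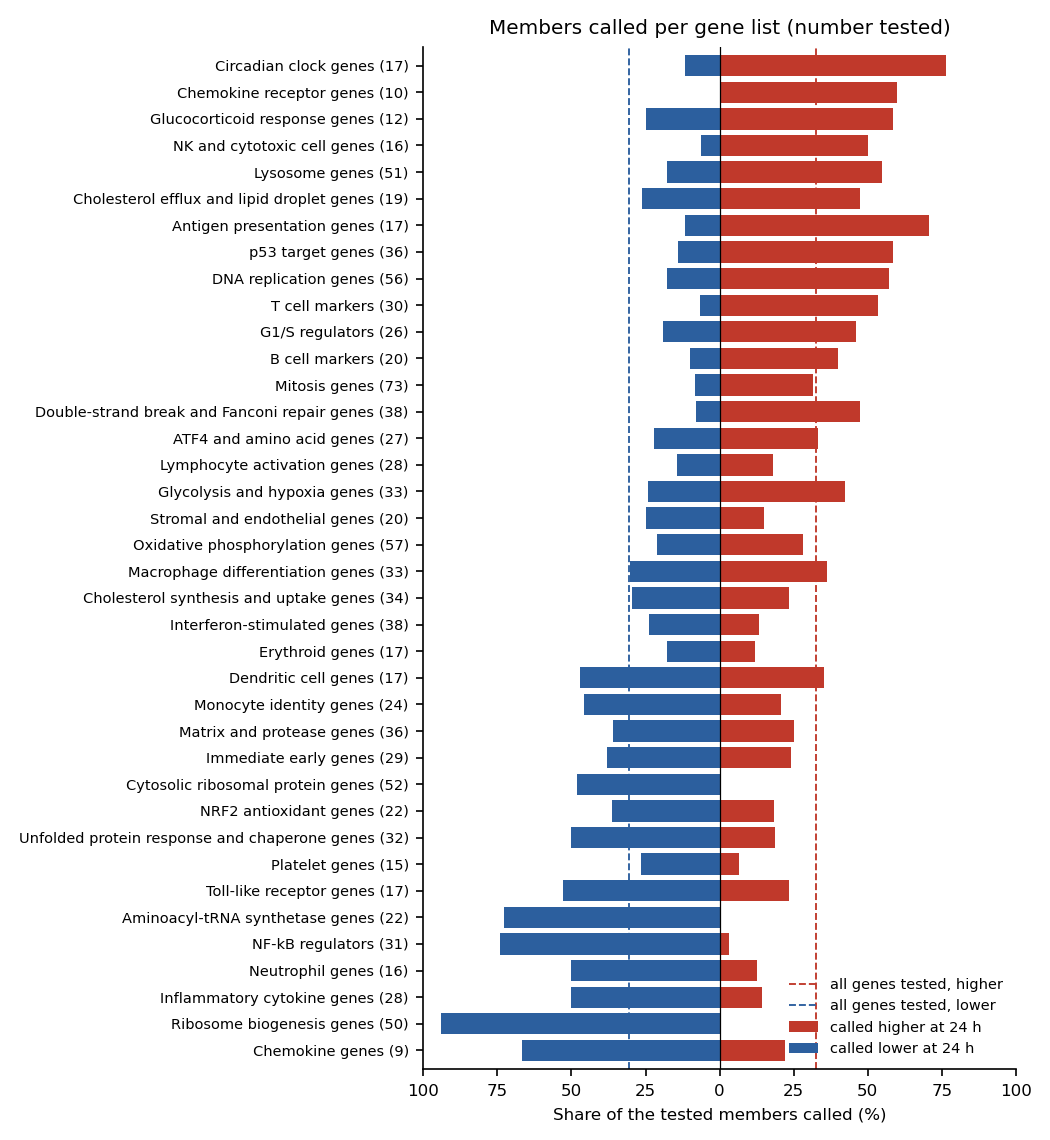
Share of tested members of each gene list called higher (red, right) or lower (blue, left) at 24 h, with the number tested in brackets and lists ordered by median log2 fold change. Dashed lines give the shares over all genes tested, 32.6% higher and 30.5% lower. Ribosome biogenesis genes (47 of 50 lower) reach farthest to the left and circadian clock genes (13 of 17 higher) farthest to the right.

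Of 17 antigen presentation genes 12 were higher, 2 lower and 3 not called (median 0.45), and their summed level was 6291 to 6926 CPM at 5 h and 10030 to 11620 CPM at 24 h. IFI30, a lysosomal thiol reductase that unfolds antigens, was at 78, 84.6 and 80.2 CPM at 5 h and at 239.9, 299.7 and 245.5 CPM at 24 h (1.69 ± 0.11, edgeR adjusted p = 6.3e-06). TAPBPL, a peptide editor of MHC class I, rose by 1.89 ± 0.12, and HLA-DMA, which loads peptide onto class II, by 1.30 ± 0.10. Without 5 h replicate 2, 1 gene was called lower.

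Lysosome genes showed 28 higher and 9 lower of 51 (median 0.50), of which 9 were higher and 3 lower by the test above 2-fold. GM2A (scaffold 1, 71193838 to 71212045, plus strand), the cofactor for breakdown of ganglioside GM2, was at 12.3, 15.2 and 13.9 CPM at 5 h and at 200.7, 176.0 and 191.8 CPM at 24 h (3.78 ± 0.11, edgeR adjusted p = 8e-07). Acid ceramidase (ASAH1) rose from 30.9 ± 3.53 to 232.6 ± 9.12 CPM, and the beta-galactosidase GLB1 from 31.0 ± 1.73 to 119.6 ± 19.0 CPM. The falls included ATP6V0A1, a subunit of the proton pump, from 459.3 ± 37.1 to 55.8 ± 3.50 CPM (-3.04 ± 0.11). The summed level of the list, 13540 to 15900 CPM at 5 h and 11520 to 14380 CPM at 24 h, did not follow the count of rises. Without 24 h replicate 2 the median was 0.33.

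In cholesterol synthesis and uptake 8 of 34 genes were higher and 10 lower (median -0.05, or 0.36 with library totals). The summed level of the list fell, from 4519 to 5125 CPM at 5 h to 2309 to 2404 CPM at 24 h. HMGCS1, an early pathway enzyme, was at 254.7, 274.0 and 285.9 CPM at 5 h and at 99, 112.0 and 89.3 CPM at 24 h (-1.44 ± 0.11, edgeR adjusted p = 1.3e-05). EBP, a late sterol isomerase, rose from 9.31 ± 0.726 to 34.2 ± 2.48 CPM (1.88 ± 0.11). The median lay between -0.13 and -0.09 without 5 h replicate 1 or 3 or 24 h replicate 1 or 3.

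Genes of cholesterol efflux and lipid droplets gave 9 higher and 5 lower of 19 (median 0.48). Lysosomal acid lipase (LIPA), which frees cholesterol from esters, rose from 173.3 ± 21.0 to 729.7 ± 197 CPM (2.07 ± 0.19), NCEH1 by 1.54 ± 0.13 and the cholesterol carrier NPC2 by 1.07 ± 0.10. The droplet coat protein PLIN3 fell by 2.69 ± 0.31. Called lower were 8 without 24 h replicate 2, and the median was 0.31 without 24 h replicate 3.

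Ribosome biogenesis genes had the largest share called in 1 direction of the 38 lists. Of 50 genes 47 were lower and 0 higher, 30 were lower by the test above 2-fold, and the median was -1.43. Fits with other scalings, DESeq2, other filters or a library left out called 40 to 49 lower and 0 to 1 higher. BYSL (scaffold 0, 122578942 to 122589282, minus strand), which matures the small subunit, was at 67.1, 72 and 65 CPM at 5 h and at 10.8, 9.64 and 10.3 CPM at 24 h (-2.73 ± 0.09, edgeR adjusted p = 8.5e-07). MRTO4 (-2.47 ± 0.10), HEATR1, needed to transcribe ribosomal RNA (-2.09 ± 0.09) and the RNA methyltransferase NOP2 (-2.04 ± 0.09) fell. None of the 4 has overlapping groups, as the naming rule requires. The 3 not called were IMP3, NPM1 and POLR1B. The summed level was 6839 to 7690 CPM at 5 h and 2818 to 2894 CPM at 24 h.

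Cytosolic ribosomal protein genes moved far less, and their direction rests on the scaling. Of 52, 25 were lower and 0 higher (median -0.28), but with library totals 14 were higher and 2 lower (median 0.13). RPL29 (-0.77 ± 0.10) and RPL4 (-0.70 ± 0.10) fell under both scalings, and RPL13 (-0.50 ± 0.09) lost its call with library totals (adjusted p = 0.425). These genes have many near-identical copies, so each value is uncertain. Without 5 h replicate 3, 2 were called higher.

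Of 22 aminoacyl-tRNA synthetase genes, which charge transfer RNAs for translation, 16 were lower and 0 higher (median -0.57, or -0.15 with library totals). FARSB and FARSA, the chains of the phenylalanine enzyme, fell from 189.2 ± 2.88 to 52.8 ± 9.01 CPM and from 116.1 ± 14.3 to 41.8 ± 4.61 CPM. The scaffold protein AIMP2 (-1.49 ± 0.09) and the glycine enzyme GARS (-1.27 ± 0.08) fell. Without 24 h replicate 3, 1 was called higher.

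Genes of the ATF4 amino acid response gave 9 higher and 6 lower of 27 (median 0.24). Cystathionine lyase (CTH) rose by 2.31 ± 0.20 and the lipoprotein receptor VLDLR by 1.57 ± 0.19. The leucine transporter SLC7A5 fell by 1.69 ± 0.18 and the transcription factor ATF5 by 1.05 ± 0.11. Without 5 h replicate 1 or 2, 5 were called higher, and without 24 h replicate 2 the median was 0.16.

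The unfolded protein response and chaperone list gave 16 lower and 6 higher of 32 (median -0.34, or 0.07 with library totals). The stress sensor ATF6 (-1.08 ± 0.08), the co-chaperone DNAJB9 (-1.02 ± 0.10), the translocon subunit SEC61B (-1.31 ± 0.13) and mitochondrial HSPA9 (-1.12 ± 0.11) fell. Heat shock genes chosen after their values were seen rose: DNAJB1 from 171.9 ± 29.2 to 695.4 ± 280 CPM and HSPA1L from 8.13 ± 1.18 to 52.7 ± 18.9 CPM.

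Metabolic lists held calls in both directions, as did all genes tested. Of glycolysis and hypoxia genes 66.7% were called and of oxidative phosphorylation genes 49.1%, against 63.1% of all genes. Glycolysis and hypoxia genes gave 14 higher and 8 lower of 33 (median 0.19), but their summed level was 12990 to 13540 CPM at 5 h and 7566 to 10250 CPM at 24 h. PFKFB4, which makes an activator of glycolysis, was at 3.64, 4.20 and 3.21 CPM at 5 h and at 24.5, 25.1 and 26.5 CPM at 24 h (2.78 ± 0.13), and ALDOC (2.21 ± 0.18) and MXI1 (1.86 ± 0.15) rose. ENO1, described above, fell, and the hypoxia factor HIF1A, chosen after its values were seen, fell from 1394 ± 109 to 392.9 ± 108 CPM.

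Oxidative phosphorylation genes gave 16 higher and 12 lower of 57 (median 0.06). The succinate dehydrogenase subunit SDHB rose from 28.1 ± 1.06 to 92.8 ± 8.35 CPM (1.72 ± 0.09) and COX7C by 0.77 ± 0.10, while cytochrome c (CYCS) fell by 1.24 ± 0.12 and ATP5B by 1.02 ± 0.13. Their median was 0.01 without 5 h replicate 1 and -0.07 without 24 h replicate 2. NRF2 antioxidant genes gave 8 lower and 4 higher of 22 (median -0.32, or 0.09 with library totals). Thioredoxin reductase TXNRD1 fell from 687.6 ± 74.1 to 151.2 ± 60.0 CPM and GCLM by 0.91 ± 0.18, and catalase (CAT, 1.23 ± 0.24) and GPX1 (0.49 ± 0.10) rose. Without 24 h replicate 1 the NRF2 list had 5 lower and 2 higher, and without 24 h replicate 2 it had 13 lower and a median of -0.50. It had 2 higher without any of the 5 h replicates.

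MKI67, the marker of dividing cells, was low at both times, at 0.521, 0.961 and 1.23 CPM at 5 h and at 0.764, 0.411 and 0.507 CPM at 24 h, with overlap (-0.71 ± 0.43, edgeR adjusted p = 0.17). Of 73 mitosis genes 23 were higher, 6 lower and 44 not called (median 0.29), and their summed level was 814.8 to 922.4 CPM at 5 h and 877 to 926.2 CPM at 24 h. The condensin subunits NCAPD3 (1.12 ± 0.09), SMC2 (0.72 ± 0.09) and NCAPD2 (0.75 ± 0.11) rose, and the checkpoint protein BUB3 fell by 0.64 ± 0.09. Called lower were 3 without 5 h replicate 3, and the median was 0.17 without 24 h replicate 1.

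DNA replication genes gave 32 higher and 10 lower of 56 (median 0.40). POLA2, a subunit of the polymerase that starts strands, was at 19.6, 21.3 and 17.4 CPM at 5 h and at 44.9, 48.3 and 44.8 CPM at 24 h (1.24 ± 0.10). The ligase LIG1 (1.16 ± 0.10), the nucleotide enzyme DUT (1.57 ± 0.15) and the primase subunit PRIM2 (0.92 ± 0.10) rose. G1/S regulators gave 12 higher and 5 lower of 26, but their summed level was 1002 to 1063 CPM at 5 h and 872 to 930.9 CPM at 24 h. The CDK inhibitor CDKN2C rose from 1.87 ± 0.126 to 12.4 ± 1.39 CPM (2.73 ± 0.15), whereas E2F3 (-2.06 ± 0.11) and the kinase CDK6 (-1.52 ± 0.11) fell.

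Targets of p53, the DNA damage transcription factor, also moved without irradiation: 21 of 36 were higher and 5 lower (median 0.45). CDKN1A, which encodes the inhibitor p21, was at 169.8, 231.0 and 252.8 CPM at 5 h and at 52.3, 76 and 62.9 CPM at 24 h (-1.77 ± 0.18, edgeR adjusted p = 6.3e-05). MDM2, the ubiquitin ligase for p53, was at 189.0 ± 8.97 and 129.5 ± 6.99 CPM (-0.55 ± 0.09, adjusted p = 0.00067), and its call was lost with library totals (0.187). The apoptosis genes BID (-1.67 ± 0.14) and AEN (-1.27 ± 0.13) fell, and the repair gene DDB2 (1.12 ± 0.09) and TP53INP1 (0.89 ± 0.10) rose.

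Genes of DNA break and Fanconi repair gave 18 higher and 3 lower of 38 (median 0.28). FANCI was at 23.2, 25 and 24.2 CPM at 5 h and at 109.0, 128.6 and 94.6 CPM at 24 h (2.20 ± 0.12). The recombination gene RAD51B rose from 0.882 ± 0.160 to 7.32 ± 0.799 CPM, XRCC5, the Ku80 subunit of end joining, by 1.34 ± 0.09 and the checkpoint kinase CHEK2 by 1.43 ± 0.13. Without 24 h replicate 3, 5 were called lower.

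Circadian clock genes had the highest median of the 38 lists, 1.02, with 13 of 17 higher and 2 lower. Their summed level, 690 to 751.4 CPM at 5 h and 604.7 to 666.5 CPM at 24 h, did not follow the count of rises. CLOCK was at 18.7, 17.6 and 16.8 CPM at 5 h and at 55.8, 66.4 and 48.4 CPM at 24 h (1.69 ± 0.13, edgeR adjusted p = 1.3e-05). PER1 (1.12 ± 0.17), the output factor DBP (2.12 ± 0.29) and the repressor BHLHE41 (2.74 ± 0.25) rose. PER2 fell from 17.8 ± 2.10 to 4.53 ± 0.723 CPM (-1.97 ± 0.16) and BHLHE40 by 1.31 ± 0.11. DBP was low, at 0.83 ± 0.0474 and 3.61 ± 1.10 CPM. The labels give no clock time of collection, and 2 times cannot show a rhythm.

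Glucocorticoid response genes gave 7 higher and 3 lower of 12 (median 0.55). Their summed level, 3558 to 4794 CPM at 5 h and 1805 to 2124 CPM at 24 h, did not follow the count of rises. FKBP5, a chaperone of the glucocorticoid receptor, fell from 328.7 ± 33.2 to 69.8 ± 6.15 CPM (-2.23 ± 0.11), like ANXA1 above. TSC22D3 (0.96 ± 0.13), a leucine zipper protein induced by glucocorticoids, and SESN3 (0.99 ± 0.11) rose.

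Matrix and protease genes gave 13 lower and 9 higher of 36 (median -0.23, or 0.18 with library totals). Next to SERPINB2 and TIMP1, the gelatinase MMP2 fell from 31.6 ± 2.61 to 3.65 ± 0.0904 CPM (-3.11 ± 0.11) and PLAUR, the urokinase receptor, from 230.6 ± 8.01 to 54.7 ± 2.59 CPM (-2.07 ± 0.08). MMP14, a membrane-bound protease chosen after its values were seen, rose from 141.3 ± 15.9 to 803.5 ± 346 CPM. With the 5 CPM filter 12 were lower and 4 higher of 24. The median was -0.13 and -0.08 without 5 h replicates 1 and 3, and -0.38 and -0.47 without 24 h replicates 1 and 2.

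The irradiated libraries give the same time contrast in cells that share no library with the untreated ones. There, 9249 of 14028 genes (65.9%) were called. Of 8434 genes called in untreated cells and tested in irradiated cells, 8213 had the same sign, 7062 (83.7%) were called with the same sign and 53 with the opposite sign. Across 13223 genes the log2 fold changes had a Pearson r of 0.918, a description over genes that are not independent replicates. The irradiated 24 h libraries also had raised low-level values, like untreated 24 h replicate 1. Among the 9625 genes with a mean of at least 5 CPM over the untreated libraries, a limit added after the data were seen, r was 0.939, and of 6774 called genes 5761 (85%) were called with the same sign in irradiated cells. Below that level the part of the signal in the agreement was not tested. CD1C changed by 7.63 in untreated and 8.41 in irradiated cells, SERPINB2 by -7.10 and -5.39, and BYSL by -2.73 and -3.09 on the log2 scale.

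The time change itself differed between the arms for 134 of 15200 genes (0.882%) in edgeR's interaction test, in 19 of which it was higher and in 115 lower in irradiated cells. B cell genes hold 12 of these calls among 20 members tested, the most of any list. MS4A1 rose by 0.73 in untreated cells and changed by -2.43 in irradiated cells (difference -3.18, adjusted p = 0.000183), and BTLA, an inhibitory receptor of B and T cells, by 0.80 and -1.45. CDKN1A fell by 1.77 in untreated cells and by 0.51 in irradiated cells (difference 1.24, adjusted p = 0.0343). The B cell list had a median of 0.37 in untreated and -1.40 in irradiated cells.

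**Figure D5:**
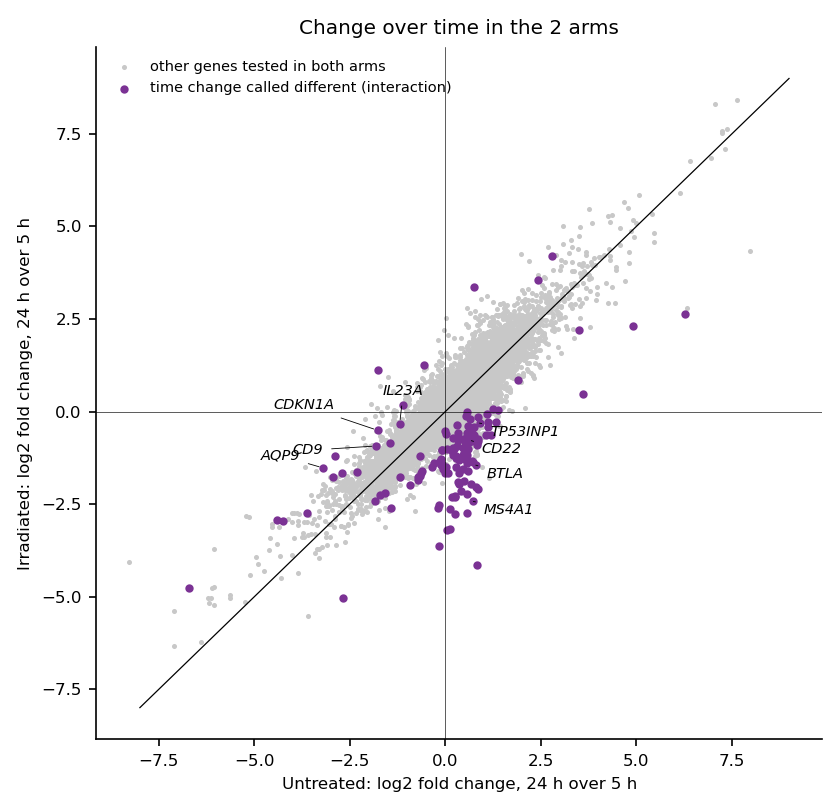
Log2 fold change from 24 h over 5 h in irradiated cells (vertical) against untreated cells (horizontal), 1 point per gene tested in both arms, with the line of equal change. Purple points are genes whose time change differed by the interaction test. MS4A1 (0.73 and -2.43) and BTLA (0.80 and -1.45) lie below the line, AQP9 (-3.20 and -1.52) above it.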

How the data were processed

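RNA of the 6 untreated libraries was read from tables in which, per the file headers, the authors deposited raw read counts per Ensembl gene (16406 genes, 2663 without a symbol). Exon lengths come from the same tables. Gene coordinates refer to scaffolds of the 2009 elephant assembly named in the header, which does not say whether they count from 0 or 1, and are left unshifted. Aligner, counting tool and strand setting: not given in the sources used here. Overlapping genes can therefore not be separated. The 24 columns of other measures per sample were not used.

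Counts were tested with edgeR 4.0.16 (R 4.3.3): TMM scaling, filterByExpr, quasi-likelihood F test, Benjamini-Hochberg adjustment at 0.05, and glmTreat for changes above 2-fold. Standard errors come from the F statistic, and fold changes use edgeR's default prior count. A prior count of 2 was used only for the log2 CPM behind the principal components and the correlations between libraries. RPKM was computed from TMM-scaled CPM and exon length. The test was checked on simulated data. Alternatives were other scalings and filters, DESeq2 1.42.0, all 12 libraries, a replicate block and leaving out each library.

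The question and the 38 gene lists were chosen with earlier results of these data known. Genes are named if they have a symbol, pass the test, average 1 CPM or more and have groups that do not overlap. They are the 12 largest rises and falls by log2 fold change, the 8 largest in RPKM, up to 4 members of each list by smallest p, and a set of lineage and state genes always. Others are marked where named. Some genes the rule selects are not reported here.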

Additional observations from a re-analysis of the deposited data

Results flagged for a closer look

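The time change of 8 genes described above differed between irradiated and untreated cells in edgeR's interaction test over all 12 libraries. Values are log2 differences, irradiated minus untreated, each from 3 libraries per group and time. Of all 15200 genes in that test 0.882% were called.

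Among lymphocyte genes, MS4A1 differed by -3.1773 (adjusted p = 0.000183), BTLA by -2.2644 (0.000675) and CD22 by -1.4852 (0.0094): all 3 rose without irradiation, by 0.73, 0.80 and 0.68, and changed by -2.43, -1.45 and -0.79 in irradiated cells. TP53INP1, a p53 target, differed by -1.2233 (adjusted p = 0.00386).

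Among genes that fell in untreated cells, the change was smaller with irradiation for AQP9 (difference 1.6664, adjusted p = 0.0124), CDKN1A (1.2445, 0.0343), CD9 (0.86743, 0.0134) and IL23A (0.85094, 0.0242).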

How the results depend on the processing

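The count of genes called ranged from 7053 to 9297 over all alternatives, and genes called both there and in the fit reported had the same sign in every alternative except library totals, where 6617 of 6624 did. Library totals gave 7063 higher and 2234 lower, and 1812 higher and 393 lower above 2-fold. Upper quartile scaling gave 1210 higher above 2-fold. DESeq2 gave 403 higher above 2-fold and 341 interaction calls. The median log2 fold change of all genes was 0.347 with upper quartile scaling and 0.525 with library totals. The cause of these shifts, and of those with DESeq2, was not tested.

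Leaving out 1 library gave 7219 to 8387 calls, 3429 to 4084 higher and 3790 to 4333 lower, and 1226 to 1482 above 2-fold, of which 554 to 693 were higher and 672 to 845 lower. A fit with 2 libraries in 1 group assumes that they vary like the 3 of the other.

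Deviations of same-numbered libraries from their group means correlated at 0.162, 0.0378 and -0.273 across 13445 genes. Most libraries correlated better with another number than with their own. These values show no pairing by number, but deviations from means of 3 libraries cannot exclude that same-numbered libraries share an origin. With the replicate block 8101 genes were called, 7936 of them shared.

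COL1A1 and CSF1R, not called, changed sign. Their values ran from -0.4992 to 1.666 and from -0.1987 to 0.2267 when a library was left out. COL1A1 was -0.03874 with DESeq2 size factors, -0.05698 without a filter, -0.09676 with DESeq2, -0.03861 with all 12 libraries, and -0.4992, -0.385 and -0.4792 without 5 h replicate 2, 5 h replicate 3 and 24 h replicate 1. CSF1R was -0.00948 without a filter, -0.04129 with DESeq2, -0.1987 without 5 h replicate 3 and -0.01536 without 24 h replicate 3. Depth limits genes near 1 CPM. Promoter sequences were not analysed here.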
